A study of Mus musculus with 6 samples.

Results

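Flag-Rxra peaks that lie near the ends of 2 neighbouring genes at once are described here, called gene-pair peaks. A peak of Flag-Rxra replicate 1 counted as shared where it overlapped a replicate 2 peak by 1 bp or more on chromosomes 1 to 19, X or Y. It was a gene-pair peak where its summit lay within 1 kb of an annotated end, 5′ or 3′, of at least 2 different protein-coding genes in RefSeq. This held for 1105 of 17623 shared peaks (6.27%, exact 95% interval 5.92 to 6.64), and for 17.8% (16.9 to 18.8) of the 6192 shared peaks with any gene end that close. The other shared peaks were 5087 near the end of 1 gene, called single-gene peaks, and 11431 away from gene ends. The members were chosen by the peak calls and summit positions of the Flag-Rxra lists, so their fold enrichment, their q and their distance to gene ends are given as descriptions. All intervals are exact binomial (Clopper-Pearson) intervals that cover counting error only.

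The study used CUT&Tag, in which an antibody guides a transposase to its target so that the cut fragments mark where the target sits on chromatin. All 6 samples came from OG2X129 mouse embryonic fibroblasts in a chemical reprogramming experiment: 2 with a Flag antibody in cells overexpressing Flag-tagged Rxra, 2 with an H3K27ac antibody under CD, and 2 with the same antibody under DMSO, the solvent control. The labels write CD without expansion, and the series title names CD3254, an RXR agonist. They leave unsaid which of CD and DMSO, if any, was given to the cells with Flag-Rxra, the day of collection, and whether replicates were separate cultures. The Flag peaks are those of an overexpressed, tagged protein, so they do not show where native Rxra sits. The lists of the Flag-Rxra replicates held 28243 peaks (replicate 1) and 45999 peaks (replicate 2). Each H3K27ac condition had 1 list, of 104437 regions covering 37.3 Mb under CD and 75482 regions covering 31.1 Mb under DMSO. The Flag-Rxra lists start at a −log10 q of 5 and the H3K27ac lists at 1, so H3K27ac was called more leniently. Read counts are not part of these lists, and the depth behind a value is unknown. Of 10 fibroblast marker genes, 5 had an H3K27ac region at an end under CD (Col3a1, Twist2, Twist1, Pdgfrb and Vim) and 5 under DMSO (Col3a1, Twist2, Twist1, Vim and Pdgfra). Of 8 markers of other cell types, 2 did under CD (Cd68 and Krt5) and 1 under DMSO (Pecam1). The fibroblast markers Col1a1, Col1a2, Thy1 and Postn had none in either list. Neither did Ptprc, Cdh5, Krt14, Sox2 and Myod1 of other cell types. Among gene ends with no other gene's end within 1 kb, 13% had a region within 500 bp under CD and 12.6% under DMSO. That background counts single ends and not genes, and the markers are few.

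Rxra is a nuclear receptor that pairs with other receptors, such as PPARs, LXRs and retinoic acid receptors, and these pairs bind direct repeats of the half-site AGGTCA. Many mammalian genes stand head to head, with their 5′ ends close together on opposite strands, and share a CpG-rich promoter that is transcribed in both directions. Genes for DNA repair, mitochondria and RNA processing are often arranged so. H3K27ac, acetylation of lysine 27 on histone H3, marks promoters and enhancers that are in use.

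The promoters that follow show what the DNA under gene-pair peaks looks like. They are RefSeq promoters of build GRCm38.p6, from 250 bases before to 50 after the annotated start, printed 5′ to 3′ on the strand of the first-named gene. In the first group capitals mark every match, on either strand, to AGGTCA (the nuclear receptor half-site), CCAAT (the box bound by NF-Y), GGGCGG (the core bound by SP1), GCATGCGC (a core bound by NRF1) or CCGGAAG (the core bound by ETS factors). A match describes the letters and does not show that a factor binds. The first 3 were the highest by fold among gene pairs whose 2 starts and summit fit in one promoter window, the next 2 are well-known head-to-head pairs, and the last 2 stand before RNA exosome genes, which the series title names.
Pdcd11 with Atp5md, chr19:47090516-47090815, plus strand: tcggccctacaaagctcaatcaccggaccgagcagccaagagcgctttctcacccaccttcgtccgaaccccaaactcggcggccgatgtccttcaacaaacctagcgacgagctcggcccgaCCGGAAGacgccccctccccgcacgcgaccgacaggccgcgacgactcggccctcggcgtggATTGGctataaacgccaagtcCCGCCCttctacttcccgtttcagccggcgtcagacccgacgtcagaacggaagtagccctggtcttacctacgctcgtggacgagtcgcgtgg
Cdc26 with Prpf4, chr4:62408576-62408875, minus strand: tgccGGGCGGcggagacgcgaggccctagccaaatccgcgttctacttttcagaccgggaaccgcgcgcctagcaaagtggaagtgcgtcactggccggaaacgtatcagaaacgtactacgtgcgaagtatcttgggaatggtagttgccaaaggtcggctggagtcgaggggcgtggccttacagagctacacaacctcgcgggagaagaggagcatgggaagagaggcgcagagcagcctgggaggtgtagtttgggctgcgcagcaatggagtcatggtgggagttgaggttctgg
Irak4 with Pus7l, chr15:94543410-94543709, plus strand: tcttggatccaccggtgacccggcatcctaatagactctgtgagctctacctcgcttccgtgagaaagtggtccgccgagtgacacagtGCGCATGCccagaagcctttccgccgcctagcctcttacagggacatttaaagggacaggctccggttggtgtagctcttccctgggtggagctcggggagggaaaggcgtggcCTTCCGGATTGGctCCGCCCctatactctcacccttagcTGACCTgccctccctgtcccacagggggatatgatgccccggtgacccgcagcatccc
Toe1 with Mutyh, chr4:116807510-116807809, minus strand: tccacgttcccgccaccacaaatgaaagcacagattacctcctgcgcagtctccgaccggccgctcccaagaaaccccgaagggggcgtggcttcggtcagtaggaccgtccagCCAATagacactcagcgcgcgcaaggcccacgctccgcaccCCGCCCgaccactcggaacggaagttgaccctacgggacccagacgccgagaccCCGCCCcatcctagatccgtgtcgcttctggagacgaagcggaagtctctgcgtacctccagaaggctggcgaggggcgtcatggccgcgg
Mrps12 with Sars2, chr7:28741772-28742071, minus strand: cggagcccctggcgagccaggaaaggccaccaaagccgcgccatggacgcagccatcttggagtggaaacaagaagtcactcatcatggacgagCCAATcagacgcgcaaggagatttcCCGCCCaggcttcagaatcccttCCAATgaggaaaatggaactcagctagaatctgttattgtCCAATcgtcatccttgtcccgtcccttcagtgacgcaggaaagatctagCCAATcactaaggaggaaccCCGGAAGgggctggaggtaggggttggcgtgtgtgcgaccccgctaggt
Exosc5 with Bckdha, chr7:25658903-25659202, plus strand: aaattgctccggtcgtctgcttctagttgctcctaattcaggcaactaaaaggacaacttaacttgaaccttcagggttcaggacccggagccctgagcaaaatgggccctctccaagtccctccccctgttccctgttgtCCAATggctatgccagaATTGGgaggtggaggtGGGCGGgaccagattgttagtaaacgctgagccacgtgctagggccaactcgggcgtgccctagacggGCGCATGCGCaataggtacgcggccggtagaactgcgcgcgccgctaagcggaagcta
Exosc1 with Zdhhc16, chr19:41933265-41933564, minus strand: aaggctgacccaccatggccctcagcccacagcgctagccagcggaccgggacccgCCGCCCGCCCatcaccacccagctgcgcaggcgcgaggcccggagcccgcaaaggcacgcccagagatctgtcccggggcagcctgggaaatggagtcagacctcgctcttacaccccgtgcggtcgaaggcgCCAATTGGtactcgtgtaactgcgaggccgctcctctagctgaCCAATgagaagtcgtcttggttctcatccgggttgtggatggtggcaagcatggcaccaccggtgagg

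In each of these windows the named gene starts at base 251. The partner's start, on the other strand, is at base 132 in the Pdcd11 window, 93 in that of Cdc26, 98 in that of Irak4, 76 in that of Toe1, 104 in that of Mrps12 and 120 in that of Exosc1, and the start of Bckdha lies outside the Exosc5 window. The summit of replicate 1 is at base 270 for Pdcd11, 210 for Cdc26, 229 for Irak4, 222 for Toe1, 194 for Mrps12, 206 for Exosc5 and 206 for Exosc1. In these windows it is before the named gene's start except at Pdcd11. By the outermost annotated gene ends, which chose the peaks, it is inside the named gene at Irak4, Toe1 and Exosc1 as well. Replicate summits of gene-pair peaks differed by a median of 59 bp, so a side cannot be read for a single peak. Of the 7 windows only that of Irak4 holds AGGTCA, on the opposite strand and next to its start. Mrps12 has 4 CCAAT boxes, all on the printed strand, and Exosc5 has a palindrome read as GCATGCGC on both strands.

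The full DR1 element, AGGTCANAGGTCA, which is the classical site of PPAR with RXR, was in 2 promoters at gene-pair peaks, those of the near copies Srp54a and Srp54c. The first is shown with the element in capitals.
Srp54a, chr12:55080246-55080545, plus strand: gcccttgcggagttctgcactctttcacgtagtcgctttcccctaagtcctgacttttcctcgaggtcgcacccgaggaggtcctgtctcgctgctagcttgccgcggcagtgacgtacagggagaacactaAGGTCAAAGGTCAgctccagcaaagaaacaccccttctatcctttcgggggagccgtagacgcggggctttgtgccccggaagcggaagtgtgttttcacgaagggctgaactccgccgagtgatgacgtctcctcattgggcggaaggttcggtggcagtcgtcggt

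Srp54a codes for a subunit of the signal recognition particle, which directs secretory proteins to the endoplasmic reticulum. Its peak, shared with 2700097O09Rik, had a fold enrichment of 14.7 in replicate 1 and 21.7 in replicate 2. H3K27ac regions overlapped it under CD and under DMSO (−log10 q of 1.34 and 2.24). Srp54c and another near copy, Srp54b, on the same chromosome, also had gene-pair peaks, with fold enrichments of 19.6 and 20.9 for Srp54c and 19.5 and 19.1 for Srp54b. Reads from such near-identical copies may have been assigned to the wrong one, so the 3 peaks are uncertain.

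Over promoters as a whole, the half-site was less frequent at gene-pair peaks than in promoters without a peak. Its share was close to that at single-gene peaks, and its full repeats were too rare to compare. Promoters of genes that stand head to head on opposite strands at a gene-pair peak were compared with the promoters of genes at the 5′ end of single-gene peaks, with promoters without a shared peak within 1 kb, and with all 17492 promoters. AGGTCA, on either strand, was found in 10.5% (8.87 to 12.4) of 1245 promoters at gene-pair peaks and in 11.2% (10.2 to 12.2) of 3824 at single-gene peaks. It was in 16% (15.4 to 16.7) of 12062 without a peak and in 14.5% (13.9 to 15) of all. DR1 was found in 1 of the 1245 promoters (Srp54a), 2 at single-gene peaks, 5 without a peak and 9 of all; the ninth is Srp54c, whose pair has no strand given and so is not among the 1245. Direct repeats with 0, 2, 3, 4 or 5 bases between the half-sites were in 0 of the 1245 promoters. Each window is 300 bases, and the windows of head-to-head neighbours share letters, so the 1245 are not independent. Only exact letters were searched. A summit up to 1 kb from a start can lie outside the window, so the letters do not show whether the DNA under a peak lacks such sites.

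Letters of other promoter elements differed between the sets in both directions. CCGGAAG was in 28% (25.6 to 30.6) of promoters at gene-pair peaks, in 18.5% (17.3 to 19.8) at single-gene peaks, in 7.87% without a peak and in 11.9% of all. GCATGCGC was in 7.15%, 6.9%, 2.14% and 3.61% of the same 4 sets. The cAMP response element TGACGTCA was in 4.34%, 3.58%, 1.63% and 2.33%, with overlapping intervals for gene-pair peaks (3.27 to 5.62) and single-gene peaks (3.02 to 4.22). CCAAT was in 44.6%, 44.8%, 36.6% and 39.2%. GGGCGG was in 67.6% (65 to 70.2) at gene-pair peaks and 73.8% (72.4 to 75.2) at single-gene peaks, against 34.8% without a peak and 46.3% of all. TATAAA was in 4.74%, 6.22%, 16.7% and 13.3%. The median GC content was 62.7% at gene-pair peaks, 62.3% at single-gene peaks, 52.7% without a peak and 56.3% in all. The median ratio of observed to expected CpG was 0.848, 0.799, 0.355 and 0.577. The sets with peaks thus differ in base composition from the set without, and the part of composition in the letter counts was not tested. CCGGAAG was the one of these sequences whose share was higher at gene-pair than at single-gene peaks with intervals that do not overlap.

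The 1105 peaks lay close to both genes. The summit was a median of 80 bp from the nearer gene (quartiles 38 and 171) and 264 bp from the second (129 and 518). It was within 250 bp of both in 523 peaks (47.3%) and within 500 bp of both in 816 (73.8%). Just inside the threshold, the second gene was 984, 989 and 997 bp away for Syt8/Tnni2, Galnt4/Poc1b and Bcat2/Hsd17b14. Just outside it was 1002, 1004 and 1007 bp away for Abcb6/Atg9a, Supt16/Chd8 and 2200002D01Rik/Yif1b. The fold enrichments of the 3 inside were 10.2 to 10.5 in replicate 1 and 7.90 to 21.7 in replicate 2, and those of the 3 outside were 9.95 to 10.6 and 11.2 to 16.9.

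The peaks belonged to 1081 gene pairs, of which 24 had 2 peaks, and to 2140 genes. That is 9.78% of the 21887 protein-coding genes, while 31.6% had any shared peak. Near exactly 2 genes were 1088 peaks, and 17 were near 3. The best of these by fold was at Rfxank/Borcs8, with the predicted gene Gm45929 as a further member, at 13.3 and 24.5. Trim23/Trappc13 with Shld3 (9.72 and 28.1) and Fam189b/Gm45927 with Scamp3 (10 and 25.1) were others.

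The summit lay strictly between the ends in a minority of pairs. Gene intervals were apart in 766 peaks (69.3%), with a median gap of 166 bp, overlapped in 317 (28.7%) and were nested in 22 (1.99%). Of the 766, the summit fell in the gap in 334 (43.6%, 40.1 to 47.2), and the peak covered the whole gap in 401 (52.3%). In the rest the summit was outside the gap. At head-to-head pairs the summit was inside the nearer gene in 328 of 636 peaks (51.6%), at a median of 4 bp into it (quartiles −67 and 79). Summits of the replicates differed by a median of 59 bp, so a side cannot be read for a single peak.

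Most gene pairs stood head to head. The strand of both genes was known for 843 peaks, from the promoter table. Of these, 636 (75.4%, 72.4 to 78.3) had 5′ ends facing on opposite strands, 179 (21.2%) joined a 5′ end to a 3′ end, 16 (1.9%) had 5′ ends on the same strand and 12 (1.42%) had only 3′ ends. The strand was not given for 262 peaks (23.7%). Of single-gene peaks, 95.4% of 4124 with a known strand were at the 5′ end. The rule used distance and not strand.

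**Figure D1:**
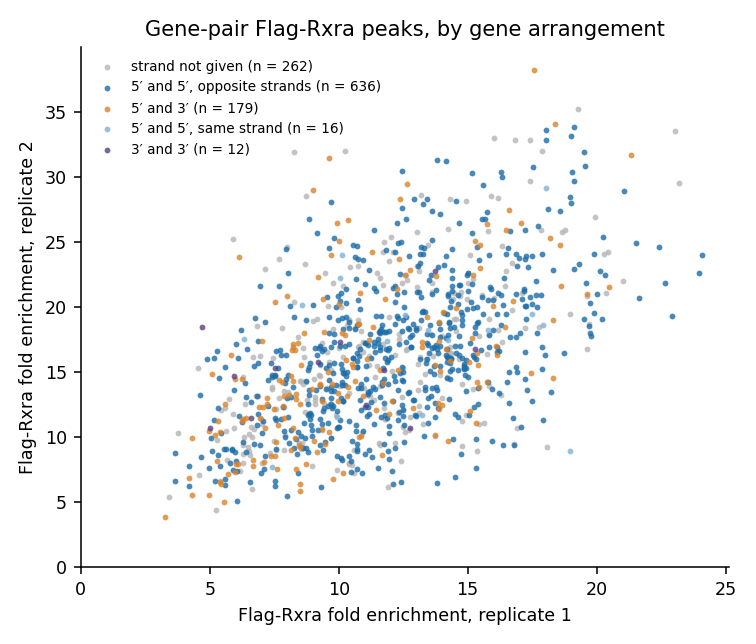
Fold enrichment of each gene-pair peak in Flag-Rxra replicate 1 (x axis) and replicate 2 (y axis), with 1 point for each of the 1105 peaks, coloured by how the ends of both genes are arranged. Head-to-head pairs on opposite strands (n = 636) and 5′ to 3′ pairs (n = 179) overlap over the whole range.

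Fold enrichment is the authors' ratio of signal to the background their peak caller estimated. Its median at gene-pair peaks was 11.7 in replicate 1 (quartiles 8.97 and 14.5) and 16 in replicate 2 (12 and 20.1). Single-gene peaks had 10.9 and 15.2, and peaks away from ends 10 and 13.9. Where several replicate 2 peaks overlapped a replicate 1 peak, the one of highest fold gave the replicate 2 fold, q and summit. Peak width differed between the classes, and its part in the replicate 2 values was not tested. Head-to-head pairs had medians of 12.2 and 16.3, and 5′ to 3′ pairs 9.95 and 14.4. Across the 1105 peaks the replicates correlated with a Spearman rho of 0.53, which describes peaks that share genes and libraries and is not a test.

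By mean rank of fold over both replicates, the first was Dhx38/Txnl4b (chr8:109565414-109565925), a splicing helicase next to a thioredoxin-like protein, at 23 and 33.6 in replicates 1 and 2. The second was Ifrd2/Hyal3, at 21.3 and 31.8, whose partner codes for a hyaluronidase.

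Others among the first 12 were Apbb3/Slc35a4 (19.3 and 35.3), S100pbp/Yars (19.1 and 33.9), Pdcd11/Atp5md (19.5 and 31.9), Dnaaf5/Prkar1b (21.1 and 29) and Cdc26/Prpf4 (19 and 33.2). Yars is the tyrosyl-tRNA synthetase, Pdcd11 a ribosomal RNA processing factor, Atp5md a subunit of ATP synthase, Cdc26 a subunit of the anaphase-promoting complex and Prpf4 a splicing factor. The first 12 also held Etfdh/4930579G24Rik (19.6 and 30.9), Alkbh7/Clpp (18.4 and 34.1), Irak4/Pus7l (19 and 30.4) and Ttc41/Hsp90b1 (19.1 and 29.7). Etfdh passes electrons from fatty acid oxidation to the respiratory chain, Clpp is a mitochondrial protease, Irak4 a kinase of Toll-like and interleukin 1 receptor signalling, and Hsp90b1 a chaperone of the endoplasmic reticulum. H3K27ac at the 11 pairs named was mixed: 3 overlapped a CD region alone, 4 a DMSO region alone, 2 both, and 2 neither.

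In the tightest pairs the ends of both genes were within 12 bp of the summit. At Capza1/St7l the genes abut, and the summit was 0 and 1 bp from them, with fold enrichments of 14.4 and 16. Arl16/Hgs, whose second gene sorts receptors to the lysosome, had 17.1 and 20.7 with the summit 2 and 3 bp away. Bcl2l12/Irf3, with the interferon regulator Irf3, had 9.44 and 12.2. Trip13/Brd9 had 15.3 in replicate 1 and 7.67 in replicate 2. Ndufs1/Eef1b2, a complex I subunit next to a translation elongation factor, had 15.2 and 13.7, and Snx5/Mgme1 had 11.5 and 19.4.

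Whether such gene pairs often carry a peak was asked from the genome's side, over all ends of different genes within 1 kb of each other. A window of 500 bp to each side of the middle between the ends was searched for a shared summit. Head-to-head pairs on opposite strands had one in 594 of 896 windows (66.3%, 63.1 to 69.4). Lone ends, with no other gene's end within 1 kb, gave a background of 11.5%, made up of 23.2% (22.5 to 23.9) of 14824 lone 5′ ends, 0.558% (0.445 to 0.69) of 15064 lone 3′ ends and 10.6% (9.93 to 11.3) of 7561 lone ends with no strand given. Pairs of a 5′ and a 3′ end had a summit in 146 of 548 (26.6%, 23 to 30.6), and pairs of 3′ ends in 7 of 771 (0.908%, 0.366 to 1.86). Pairs of 5′ ends on the same strand had one in 18 of 40 (45%, 29.3 to 61.5). The largest class, pairs in which a strand was not given, had one in 237 of 1286 (18.4%, 16.3 to 20.7), and all close pairs together in 1002 of 3541 (28.3%, 26.8 to 29.8). Head-to-head pairs among those without a strand are not counted in the 66.3%, which holds for genes in the promoter table. A window at a head-to-head pair holds 2 gene starts, and a window at a lone 5′ end holds 1. By the distance between head-to-head starts, the share was 66% up to 100 bp, 72.3% over 100 and up to 300 bp, and 59.4% over 300 and up to 1000 bp.

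**Figure D2:**
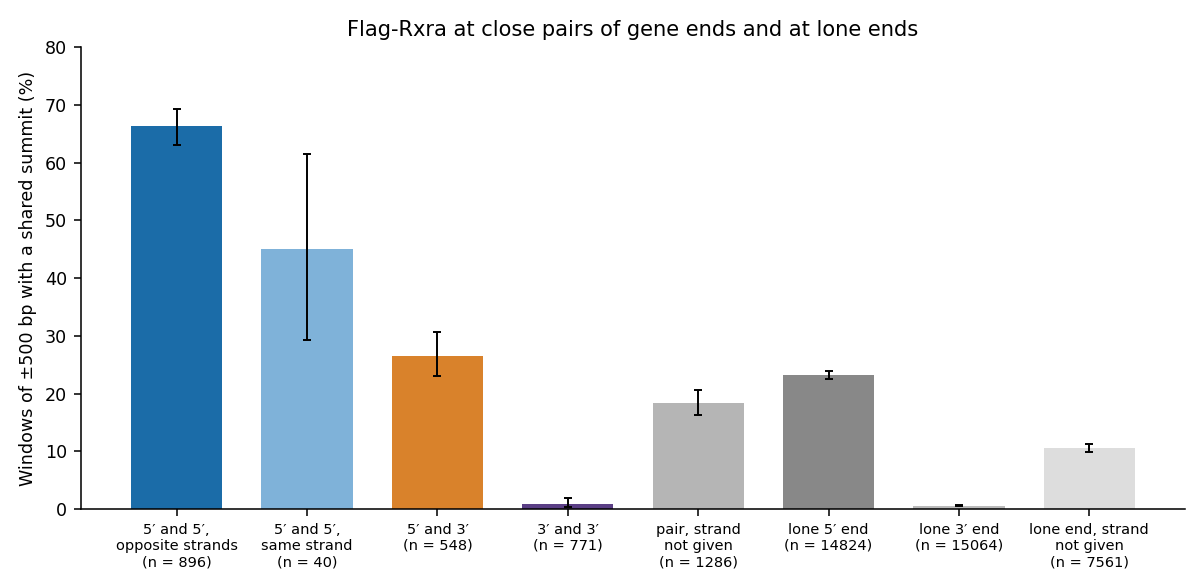
Percentage of windows of 500 bp to each side that hold a shared Flag-Rxra summit, for pairs of gene ends within 1 kb of each other by arrangement and for ends with no neighbour that close; bars show the share and error bars its exact 95% interval. Head-to-head pairs reach 66.3%, above the 26.6% of 5′ to 3′ pairs and the 23.2% of lone 5′ ends, pairs of 3′ ends and lone 3′ ends stay under 1%, and pairs with no strand given are at 18.4%.

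H3K27ac was also more frequent in the head-to-head windows. A region overlapped 46.7% of them under CD and 55.7% under DMSO, against 19.2% and 20.1% of lone 5′ ends. Of windows with a region, a shared summit was found in 75.1% (70.7 to 79.2) of head-to-head pairs under CD and 78.2% (74.3 to 81.7) under DMSO, against 49.8% (48 to 51.7) and 55.2% (53.4 to 57) of lone 5′ ends. Head-to-head pairs thus had a summit more often than lone 5′ ends also where both carried H3K27ac. The number of starts in a window differs between the sets in this comparison too, and its part was not tested.

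Of the gene-pair peaks, 462 (41.8%, 38.9 to 44.8) overlapped a CD H3K27ac region and 591 (53.5%, 50.5 to 56.5) a DMSO region, against 26.9% and 34.4% of all shared peaks. Single-gene peaks had 34.6% (33.3 to 36) under CD and 41.9% (40.5 to 43.2) under DMSO, and peaks away from ends 22% and 29.3%. Both lists overlapped 316 gene-pair peaks (28.6%), where the share of all shared peaks was 15.4%. CD alone overlapped 146 (13.2%, with 11.5% of all), DMSO alone 275 (24.9%, with 19% of all) and neither list 368 (33.3%, with 54.1% of all). The share with neither was 44.2% (42.8 to 45.6) at single-gene peaks. No test between CD and DMSO was possible with 1 list each. The CD list is the longer one, and with its weakest regions left out until both lists covered the same length, 39.5% of gene-pair peaks overlapped it.

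**Figure D3:**
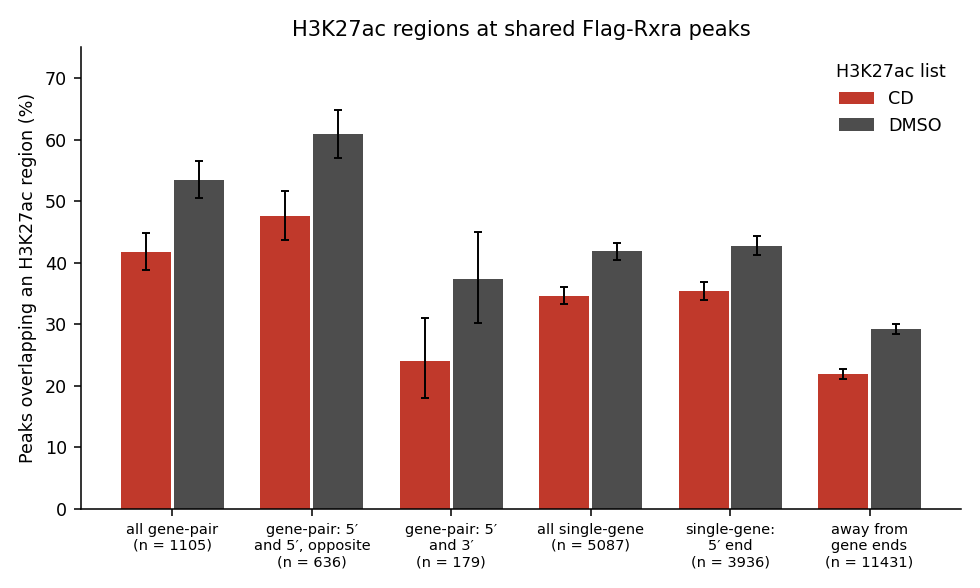
Percentage of shared Flag-Rxra peaks that overlap an H3K27ac region in the CD list (red) and the DMSO list (grey), by class of peak; error bars are exact 95% intervals. Gene-pair peaks reach 41.8% under CD and 53.5% under DMSO, head-to-head pairs 47.6% and 61%, and peaks away from gene ends 22% and 29.3%.

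Within the gene-pair peaks, H3K27ac followed the arrangement of the genes. Of head-to-head peaks, 47.6% (43.7 to 51.6) overlapped a CD region, 61% (57.1 to 64.8) a DMSO region and 25.6% neither. Of 5′ to 3′ peaks, 24% (18 to 31), 37.4% (30.3 to 45) and 52.5% did. Of the 12 peaks between 3′ ends, 3 overlapped a CD region and 2 a DMSO region. Single-gene peaks at a 5′ end had 35.4% (33.9 to 36.9) under CD and 42.8% (41.2 to 44.3) under DMSO, and those at a 3′ end 19.1% and 22.3%. Among head-to-head pairs that are apart, a DMSO region overlapped 59.1% (52 to 65.9) with gaps up to 100 bp, 67.3% (59.3 to 74.7) with gaps over 100 and up to 300 bp and 65.3% (53.1 to 76.1) with wider gaps. A CD region overlapped 46.8%, 46.4% and 48.6% of them. Intervals overlap throughout, and a difference by gap width was not tested.

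These overlaps rest on weak H3K27ac regions. The regions at gene-pair peaks had a median −log10 q of 1.56 under CD and 1.71 under DMSO. With regions of 2 or more only, 8.05% (6.52 to 9.82) of gene-pair peaks overlapped a CD region and 16.5% (14.3 to 18.8) a DMSO region, and single-gene peaks had 7.78% (7.06 to 8.56) and 12% (11.1 to 12.9). The intervals of both classes under CD then overlapped. Both lists then overlapped 2.17% (1.4 to 3.21) of gene-pair peaks, 2.12% (1.74 to 2.56) of single-gene peaks and 3.6% (3.26 to 3.95) of peaks away from ends, so the higher share of gene-pair peaks in both lists was not seen with these regions. Gene-pair peaks were also wider, at a median of 490 bp, than single-gene peaks at 442 bp and peaks away from ends at 343 bp. With a fixed window of 500 bp around the summit in place of the peak, 46.9% of gene-pair peaks had H3K27ac under CD and 57.9% under DMSO, against 40.8% and 46.6% of single-gene peaks, so the difference between the classes was also present at equal width.

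H3K27ac was densest at the Flag-Rxra summit itself. At the summit base, 27.3% of gene-pair peaks were covered under CD and 39.9% under DMSO, against 22.2% and 29.4% of single-gene peaks and 14.7% and 20.9% of peaks away from ends. At 1000 bp upstream in genome coordinates coverage was 6.7% under CD and 7.24% under DMSO, and at 1000 bp downstream 6.7% and 7.69%. At 2000 bp upstream it was 3.62% and 2.71%, and downstream 3.71% and 1.81%. DMSO coverage of gene-pair peaks was thus higher than CD coverage at the summit, close to it at 1000 bp and lower at 2000 bp. The values at 2000 bp rest on 40 and 30 of 1105 peaks upstream and 41 and 20 downstream. Single-gene peaks had 3.03% under CD and 2.83% under DMSO at 2000 bp upstream, and 2.77% and 2.89% downstream. Peaks away from ends had 3.75% and 3.66% upstream, and 3.54% and 3.68% downstream. The lower DMSO coverage was thus not seen on both sides in these classes.

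**Figure D4:**
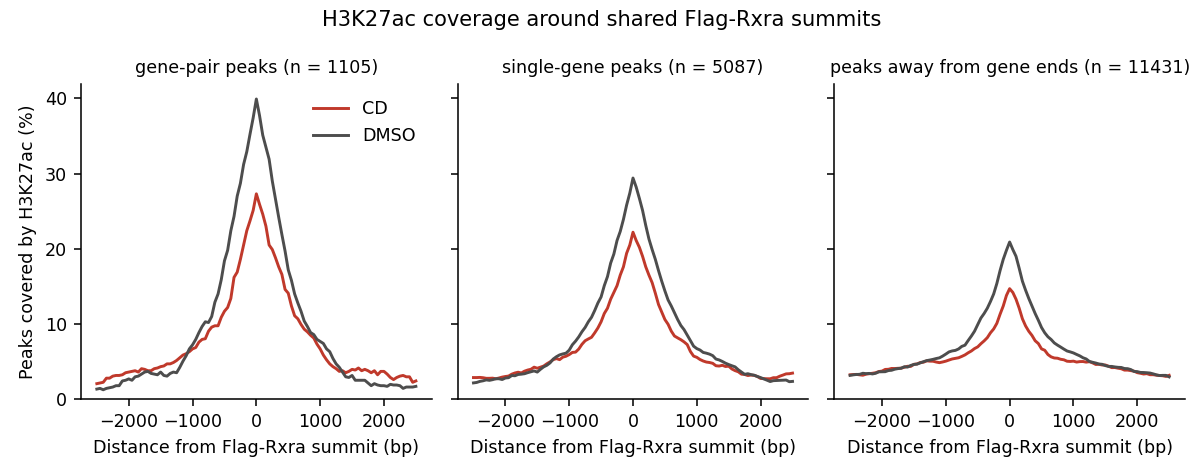
Percentage of peaks whose DNA is covered by an H3K27ac region (y axis) at each distance from the Flag-Rxra summit (x axis, bp, genome direction) in the CD list (red) and the DMSO list (grey), for gene-pair peaks, single-gene peaks and peaks away from gene ends. Every curve has its maximum at the summit, of 27.3% under CD and 39.9% under DMSO for gene-pair peaks.

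In bases, H3K27ac regions covered a median of 298 under CD and 408 under DMSO in the 5 kb around gene-pair summits. CD covered more at 435 peaks (39.4%, with 35.5% of all shared peaks), DMSO at 542 (49%, with 43.6% of all), and 128 were equal. The median difference, CD minus DMSO, was 0 bases.

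Among the peaks with the largest excess under CD was Ppat/Paics, whose products catalyse steps of purine synthesis, with 1514 bases under CD and 0 under DMSO, and its Flag-Rxra fold enrichments were 15.8 and 17.9. Ndufb11/Rbm10, a complex I subunit next to a splicing regulator, had 1502 and 0. Slc26a8/Mapk14, the second gene being the stress kinase p38α, had 1479 and 0. Sirt6/Ankrd24, with the deacetylase Sirt6, had 1464 and 0, and Sptbn4/Blvrb had 1678 and 284. A CD region overlapped 4 of these 5 peaks, with a −log10 q of 1.18 to 1.53, and lay beside the peak at Slc26a8/Mapk14.

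The largest excess under DMSO was at Rsf1/Aamdc, with 0 bases under CD and 2210 under DMSO. Rsf1 is a subunit of a chromatin remodelling complex. Tbc1d17/Akt1s1, whose second gene codes for an inhibitor of mTORC1, had 0 and 2209. Sbds/Tyw1 had 375 under CD and 2121 under DMSO, and Sbds acts in ribosome maturation. Ajm1/Phpt1 had 0 and 1699. Trex1/Atrip had 535 and 2077. Trex1 is the nuclease that degrades DNA in the cytosol and so restrains interferon signalling, and Atrip is the partner of the checkpoint kinase ATR. Nkiras1/Rpl15 had 0 and 1521, and its peak was among the stronger ones, at 18.8 and 25.9 in replicates 1 and 2.

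A list of 29 neighbouring gene pairs, named from textbook knowledge as head to head but drawn up with earlier results of these data known, had 20 with a gene-pair peak. Of the 25 whose ends are within 1 kb, the share was 80%. Of all 896 head-to-head pairs of known strand, 66.3% had a shared summit within 500 bp of the middle, a narrower search. The list is short and was chosen with results known, so these shares were not compared. Npat/Atm had the highest fold enrichment among them in replicate 1 (24.1, and 24 in replicate 2). Atm is the kinase that senses double-strand breaks, and Npat activates histone genes. Toe1/Mutyh had 19 and 28.5 and Nbr1/Brca1 16.3 and 20.9. The mitochondrial chaperone pair Hspe1/Hspd1 had 10.7 and 15.9, and Mrps12/Sars2 14.7 and 26.5. Wrap53/Trp53 was at the low end in replicate 1, at 5.29, but not in replicate 2, at 16.7. Its summit lay 870 and 968 bp from the 2 genes. Tap1/Psmb9, which act in antigen presentation, had 6.4 and 8.88.

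No shared peak was found near Col4a1/Col4a2, Col4a3/Col4a4 or Col4a5/Col4a6, the collagen IV pairs, although the first 2 have ends within 113 bp of each other. Fen1/Tmem258, Hars/Hars2, Aars/Exosc6 and Dtymk/Atg4b also had none, and Fancg/Vcp and Brip1/Ints2 had a peak at 1 gene only. The lists hold only called peaks, so binding below the authors' threshold is not shown to be absent.

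By function, 175 of 945 genes in 16 lists were at a gene-pair peak. The share over all protein-coding genes was 9.78%, and it was 38.5% over genes with another gene's end within 1 kb, which a gene-pair peak nearly requires. Both backgrounds are given, since lists differ in how many genes have a close neighbour. Neither is matched for the arrangement of the genes. A shared summit lay in 66.3% of windows at head-to-head pairs and in 0.908% of windows at pairs of 3′ ends. The part of arrangement in the shares of the lists was not tested.

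**Figure D5:**
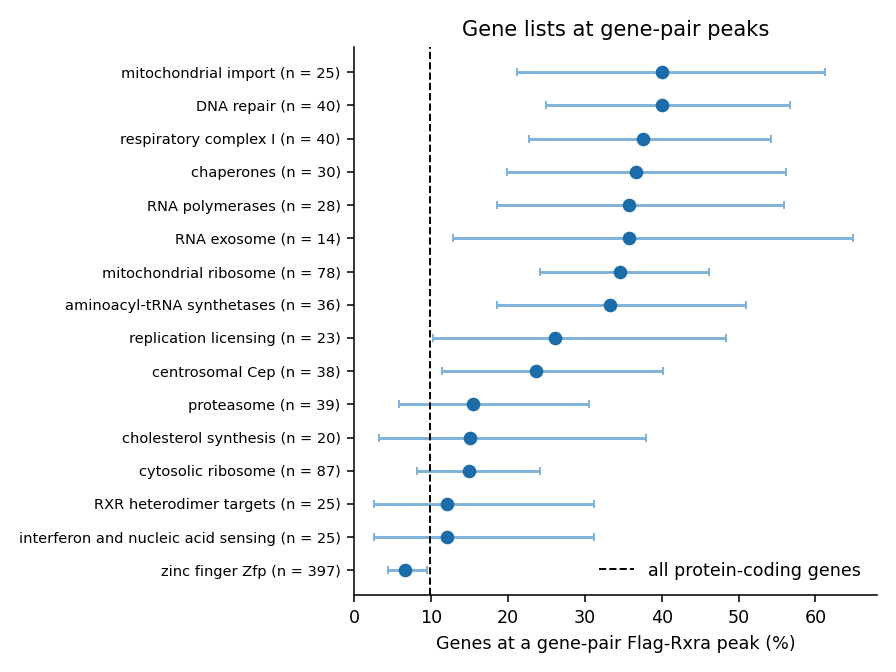
Percentage of each list's genes that lie at a gene-pair Flag-Rxra peak (points, with exact 95% intervals as bars) and the share of all protein-coding genes (dashed line, 9.78%). DNA repair and mitochondrial import are highest at 40%, and Zfp genes lowest at 6.55%.

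DNA repair genes were at gene-pair peaks in 16 of 40 cases (40%, 24.9 to 56.7), and 16 of the 26 with a close neighbour (61.5%). They included Atm, Brca1, Ercc8, Fanci, Mre11a, Msh3, Mutyh, Nthl1, Palb2, Pold1, Polh, Prkdc, Rad51c, Ung and Xrcc1. Fold enrichments at the 16 peaks were 7.58 to 24.1 in replicate 1 and 11.3 to 28.5 in replicate 2. H3K27ac overlapped 10 of the 16 under CD and 11 under DMSO, where the shares of all gene-pair peaks were 41.8% and 53.5%. Head to head were 12 pairs, with 3 of no given strand, where the share of all pairs with known strand was 75.4%.

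Mitochondrial genes followed. Of 25 import genes, 10 were at gene-pair peaks (40%), led by Timm13/Lmnb2 (15.5 and 24.8). Of 40 complex I subunits, 15 were (37.5%, 22.7 to 54.2), led by Ndufv3/Wdr4 (15.2 and 30.3) and Phf14/Ndufa4 (18.3 and 22.8). Of 78 mitochondrial ribosome genes, 27 were (34.6%, 24.2 to 46.2), at 30 peaks, of which 24 were head to head and 2 had no strand given. Mrpl46/Mrps11 joins 2 genes of this list, with fold enrichments of 12.4 and 15.4. As a share of genes with a close neighbour, these lists had 66.7%, 57.7% and 61.4%.

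Of 36 aminoacyl-tRNA synthetases, which charge tRNAs with amino acids, 12 were at gene-pair peaks (33.3%, 18.6 to 51), and S100pbp/Yars and Mrps12/Sars2 led. Of 28 RNA polymerase subunits, 10 were (35.7%, 18.6 to 55.9), led by Clcn2/Polr2h (14.4 and 18.5). Of 30 chaperones, 11 were (36.7%, 19.9 to 56.1), led by Ttc41/Hsp90b1 and Cdnf/Hspa14 (21.7 and 20.7). Of 23 replication licensing genes, 6 were (26.1%, 10.2 to 48.4): Cdc45, Dbf4, Mcm4, Mcm7, Orc3 and Orc6. Orc3 shares its peak with the synthetase gene Rars2 (14.8 and 18.6). Centrosomal Cep genes had 9 of 38 (23.7%, 11.4 to 40.2), led by Cep290/Tmtc3 (15.4 and 24.7). Among genes with a close neighbour, the share was 64.7% of 17 synthetases, 62.5% of 16 polymerase genes and 71.4% of 14 chaperones. It was 66.7% of 9 licensing genes and 50% of 16 Cep genes, where all such genes had 38.5%.

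RNA exosome genes code for the complex that degrades RNA from its 3′ end. Of 14, 5 were at gene-pair peaks (35.7%, 12.8 to 64.9), and 5 of 10 with a close neighbour. Exosc5/Bckdha (chr7:25658704-25659241) had fold enrichments of 16.3 and 30.4, and Exosc1/Zdhhc16 (chr19:41933300-41933636) had 13.8 and 31.3. Exosc8/Alg5 had 12 and 16.9, Exosc7/Zdhhc3 14.6 and 11.6, and Exosc10/Mtor, a 5′ to 3′ pair, 7.51 and 20.4. H3K27ac within 2.5 kb of these summits covered 1255 bases under CD and 285 under DMSO at Exosc1, 858 and 215 at Exosc7 and 350 and 233 at Exosc10. The order was the other way at Exosc5, with 379 under CD and 723 under DMSO, and at Exosc8, with 0 and 737. The 5 peaks thus had no common direction.

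Lists with fewer gene-pair peaks were those of the cytosolic ribosome (13 of 87, 14.9%), the proteasome (6 of 39, 15.4%), cholesterol synthesis (3 of 20, 15%), RXR heterodimer targets (3 of 25, 12%), interferon and nucleic acid sensing (3 of 25, 12%) and Zfp zinc finger genes (26 of 397, 6.55%). Their intervals, except that of Zfp genes (4.32 to 9.45), include the 9.78% of all genes. Of cytosolic ribosome genes, Msrb1/Rpl3l had the highest fold in replicate 2, at 38.3 (17.6 in replicate 1). That peak was near the 3′ end of Rpl3l and the 5′ end of Msrb1. Of genes with a close neighbour, where the share over all such genes was 38.5%, gene-pair peaks were at 43.1% of the 58 Zfp genes, 50% of 12 proteasome genes, 50% of 6 RXR targets, 41.9% of 31 cytosolic ribosome genes, 37.5% of 8 interferon genes and 30% of 10 cholesterol genes. The low share of Zfp genes was thus not seen on this background. Both genes are Zfp genes at Zfp28/Zfp78 (17.5 and 14.9), Zfp784/Zfp580 (16.9 and 15) and Zfp398/Zfp786 (5.89 and 7.46). Zfp genes are a repeated family, in which similar copies can take each other's reads.

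The cholesterol genes were Dhcr7 with Nadsyn1 (17.2 and 23.7), Tm7sf2 with Vps51 (15 and 20.7) and Mvk with Mmab (13.5 and 18.6). Mvk and Mmab are a head-to-head pair known to share control by sterols. The RXR target genes included Nr1h3, the receptor LXRα, with Madd (8.33 and 13), and Srebf1, the lipid synthesis regulator, with Rai1 (5.94 and 14.7). The end near the summit was the 3′ end of Nr1h3 and of Srebf1, so neither peak was at the annotated start of these genes. At these 2 the summit was 765 bp or more from any end, and neither had H3K27ac within 2.5 kb under CD or DMSO.

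The interferon genes were Irf3, Irf9 and Stat2. Irf9 and Stat2 together form the factor that answers type I interferon. Irf9/Rnf31 had fold enrichments of 18.2 and 25.4, Stat2/Apof 10.3 and 18.6, and Bcl2l12/Irf3 9.44 and 12.2. None of the 3 peaks overlapped an H3K27ac region under CD or DMSO. Neither list overlapped 33.3% of all gene-pair peaks and 54.1% of all shared peaks, and 3 peaks are too few to set beside these shares. Within 2.5 kb, Irf9 had 696 bases under CD and 503 under DMSO, Stat2 0 and 454, and Irf3 262 and 0.

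Noncoding genes differed by kind. A long noncoding RNA gene had an end within 1 kb of 38 gene-pair peaks (3.44%, 2.44 to 4.69), against 13.4% (12.5 to 14.4) of single-gene peaks and 6.73% of peaks away from ends. A microRNA gene did at 11 gene-pair peaks (0.995%, 0.498 to 1.77), against 0.747% (0.529 to 1.02) of single-gene peaks and 0.28% (0.192 to 0.395) of peaks away from ends. A tRNA gene did at 3 gene-pair peaks (0.271%), against 0.491% and 0.551%. Small nucleolar and small nuclear RNA genes were at 0 of 1105, which allows a share of up to 0.333% each by the exact interval, against 0.354% and 0.236% of single-gene peaks and 0.105% and 0.385% of peaks away from ends.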

How the data were processed

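CUT&Tag was made on 2 Flag-Rxra, 2 CD H3K27ac and 2 DMSO H3K27ac samples of OG2X129 mouse embryonic fibroblasts. Per the submitters' processing notes, fastp 0.20.1, Bowtie2 2.2.5, MACS2 2.1.2 and deepTools 3.4.3 were used with build mm10. Their settings and any control library are not given in the sources used here. The deposited peak lists give for each peak a fold enrichment (a ratio over the caller's background) and the −log10 of its q-value, as the authors' caller wrote them. The deposited Flag-Rxra lists also give each summit as an offset, a score in bp. The labels tie 1 H3K27ac list to the 2 CD samples and 1 to the 2 DMSO samples, and do not say how the samples were joined.

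Lists were compared by overlap of at least 1 bp, in Python 3.11.15 (pandas 2.3.3, numpy 2.4.6), and intervals were taken from scipy 1.17.1. Gene ends were the outermost ends of 21887 protein-coding genes in RefSeq GRCm38.p6, the assembly that mm10 represents. Strands came from the RefSeq promoter table, which held 17492 of them (79.9%). A promoter's start can lie inside the outermost end. Peaks on other contigs were left out. The overlap code was tested on simulated data.

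Values are counts, medians and shares with exact 95% binomial intervals. No p-value was computed, since a condition had 1 list and the Flag lists chose the peaks. The lists hold no reads, so depth, and the precision it gives, is unknown.

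The members, the 16 gene lists and the 29 gene pairs were chosen with earlier results of these data known. The pairs named are the 12 best by mean rank of fold, the 6 with most H3K27ac bases under CD over DMSO and the 6 with most under DMSO over CD, the 6 tightest, the best with 3 genes, those on either side of the 1 kb threshold, the 29 given pairs, peaks with both genes in 1 list and the 2 best of each list. In lists with 5 or fewer members at peaks, all were named. A few pairs and genes that this rule selects are not reported here. Srp54a was named after its promoter's letters were seen. Alternatives were other distances, overlaps, q thresholds, single replicates, H3K27ac windows and list lengths.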

Additional observations from a re-analysis of the deposited data

How the results depend on the processing

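Of 141 alternative values, 78 stayed within the interval of the main value, or within 1.5 times of a main count. With gene ends within 250 bp, 523 peaks remained (2.97% of shared peaks), with a median second distance of 123 bp, 90.2% head to head and 29.8% without H3K27ac. Within 500 bp the share was 4.63%, the distance 176 bp, head to head 82.4%, CD H3K27ac 46.1%, both lists 32% and neither 29.5%. Within 2 kb these were 8.57%, 426 bp, 64.1%, 38.8%, 25.2% and 38.3%, and DMSO H3K27ac was 48.1%. With an overlap of 50% of both peaks 687 were left, at 236 bp. With −log10 q of 20 or more in both replicates the share was 7.52%, DMSO H3K27ac 57.5%, both lists 31.6%, neither 29.7%, and the fold medians 12.6 and 17.1. Genes that do not overlap gave 4.37% and 244.5 bp, and leaving out predicted genes 5.74%.

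Using the peaks of 1 replicate alone, the share ranged from 3.31% to 4.85%, the second distance from 293 to 315 bp, CD H3K27ac from 34.3% to 38.7%, DMSO from 43% to 49.7%, DMSO alone from 22.2% to 23.7%, both from 20.8% to 25.9% and neither from 37.5% to 43.5%. The head-to-head share ranged from 70.9% to 73%. Head-to-head windows had a peak in 73.9% to 76.9% and lone 5′ ends in 29.6% to 29.9%. With windows of 250 bp these shares were 53.1% and 19.8%, of 1 kb 70% and 25.8%, and with −log10 q of 20 or more 54.8% and 17.1%. H3K27ac regions of −log10 q of 2 or more gave 8.05% under CD, 16.5% under DMSO, 5.88% CD alone, 14.3% DMSO alone, 2.17% both and 77.6% neither. Within 500 bp of the summit these were 46.9%, 57.9%, 13.4%, 24.4%, 33.5% and 28.7%. Under every alternative DMSO H3K27ac was more frequent than CD H3K27ac at gene-pair peaks, and head-to-head windows had a peak more often than lone 5′ ends.

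No paired analysis was possible because each H3K27ac condition had 1 list and no result came from a test. The limits are these: H3K27ac has no replicate lists, its regions are weak, read depth is unknown, strand was known for 843 of 1105 peaks, and a called list cannot show that binding is absent.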

Other observations

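The share of shared Flag-Rxra peaks that were gene-pair peaks varied between chromosomes. It was 10.9% on chromosome 17, 9.66% on chromosome 7 and 8.1% on chromosome 19, against 6.27% over all. It was 4.22% on chromosome 6 and 2.79% on chromosome 18, and chromosome Y had 0 among 10 shared peaks. The number of protein-coding genes differed too, with 1059 on chromosome 17, 2030 on chromosome 7 and 705 on chromosome 19. Chromosome 6 had 1126 and chromosome 18 had 511. How often gene ends lie close together on each chromosome was not set beside these shares.

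In the strongest H3K27ac regions, those with a −log10 q of 100 or more in both lists, lay 0 of 1105 gene-pair peaks, 1 of 5087 single-gene peaks and 54 of 11431 peaks away from gene ends. Regions at all shared peaks had a median of 1.57 under CD and 1.7 under DMSO. What sets these few extreme regions apart was not tested, so they are not read as the most active sites.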
